A study of Drosophila melanogaster with 10 samples.

Results

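The genes described here are 37 receptors for neuropeptides and peptide hormones, all of those named for the purpose and found among the 11621 genes of the deposited table by their symbols. Their expression was compared between brains of male Drosophila melanogaster on diets that differ in protein and carbohydrate. All flies were of the wild-type W1118 strain and 4 to 7 days old. Flies on the LPHC diet received carbohydrate and no protein (protein to carbohydrate ratio 0 to 1), and flies on the HPLC diet received a ratio of 1 to 2, both at 360 g/L. Each diet had 5 libraries of RNA from dissected, frozen brains. The series' design links LPHC to lower and HPLC to higher taste responses to sucrose. No label says that the 5 libraries of a diet are from independent groups of flies. The p-values therefore reflect only how these libraries scatter, and that scatter may be technical.

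Neuropeptides and peptide hormones are short secreted signals cut from larger precursor proteins. Most of them act on receptors in the cell membrane that are coupled to G proteins, which set the cyclic AMP or calcium level of the receiving cell. In the fly brain such receptors adjust feeding, sleep, sensory gain, the release of insulin-like peptides and water balance, and in the fat body they control the use of stored fat and sugar.

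Values are read counts per gene that the authors divided by a size factor for each library, here called normalised counts. The 10 libraries held 19834344 to 38402635 reads. All 37 receptors were read well above the counting floor: the receptor with the lowest mean over the 10 libraries was AstA-R2 at 39.45 and the receptor with the highest was AstC-R1 at 2324. The lowest single value, 20.3 for CapaR in HPLC replicate 2, still exceeded the normalised count that 3 reads give in that library, 2.53. Against the tissue label, all 15 neuron markers were listed, but markers of other tissues were present too. The summed level of 17 fat body markers was 32064 to 40925 on LPHC. On HPLC it was 167470 to 213660. Of the 16 that were tested, 15 were called higher on HPLC and 1 lower. The neuron markers summed to 271700 to 333300 on LPHC, and on HPLC to 241080 to 285150, with 4 called lower and none higher (limma). The 14 listed photoreceptor markers had far higher sums, 3131500 to 3471300 on LPHC and 2417100 to 3028800 on HPLC. The libraries thus held much photoreceptor RNA besides that of the brain. HPLC replicate 3 had the lowest sum of neuron markers of all libraries and was the lowest library of its diet for 24 of the 37 receptors, while it was the lowest of its diet for 31.2% of all tested genes.

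In the comparison of diets, 3 receptors rose and 16 fell on HPLC, and 18 did not pass the test. The receptors of the hormones that mobilise or adjust energy stores, AkhR and CrzR, and the pyrokinin receptor PK1-R rose. The 16 receptors that fell, among them NPFR, CCHa1-R, CCKLR-17D3, Dh44-R1, TkR99D and MsR2, had log2 fold changes from -0.19 to -0.40. The test was limma on log2 of the normalised count plus 1, over 9896 genes whose mean reached 10, at an adjusted p of 0.05 (Benjamini-Hochberg over all of them). All fold changes are HPLC minus LPHC on that scale, with standard errors (SE).

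Of all tested genes 40.9% were called in either direction, against 51.4% of the receptors. For rises the share was 22.1% of all genes and 8.11% of the receptors. For falls it was 18.9% of all genes and 43.2% of the receptors. The median log2 fold change was -0.20 over the 37 receptors and -0.03 over all tested genes. In 5 receptors every HPLC library lay above every LPHC library (17.4% of all tested genes did so), and in 8 receptors every HPLC library lay below (11.7% of all tested genes). A call together with a change of at least 2-fold was reached by 2 receptors, AkhR and PK1-R, and by 6.7% of all tested genes. Without HPLC replicate 3, 6 receptors were called higher and 14 lower, against 22.5% and 19.4% of all tested genes in that fit.

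Which receptors were called lower depended on how the libraries were scaled, while the 3 rises were called under each scaling tried. When the libraries were scaled to the 15 neuron markers, none of the 37 receptors was called lower (1 had an unadjusted p below 0.05), against 2.21% of all tested genes. Under that scaling 6 were called higher (AkhR, PK1-R, CrzR, sNPF-R, Pdfr and ETHR), against 24.7% of all tested genes. All 16 receptors that fell kept a negative log2 fold change there, between -0.05 and -0.26, and the smallest adjusted p among them was 0.0941 (limma), for NPFR. The SE of each of the 16 was also larger there than as deposited. For CCKLR-17D3 it was 0.059 as deposited and 0.108 under neuron scaling, and for FMRFaR 0.089 and 0.102. The lost calls thus go with smaller falls and with wider errors. On whole reads recovered from the deposited values, edgeR (with TMM factors) and DESeq2 (with its own size factors) each called 17 receptors lower (18.9% and 19.6% of all tested genes). In the other direction, quantile normalisation called 25 receptors lower (39.4% of all tested genes) and upper-quartile scaling called 22 (33.1%). The median of all tested genes moved from -0.03 to 0.11 with neuron scaling, to -0.14 with quantile normalisation and to -0.11 with upper-quartile scaling, and the median of the receptors was -0.06, -0.33 and -0.29. AkhR, PK1-R and CrzR were called higher under the scaling of the authors and all 4 others (TMM, upper-quartile, quantile, neuron markers), as were 16.7% of all tested genes. No receptor was called lower under all of these, against 2.21% of all tested genes. In bulk tissue, fewer cells of a type and less RNA per cell cannot be told apart.

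**Figure D1:**
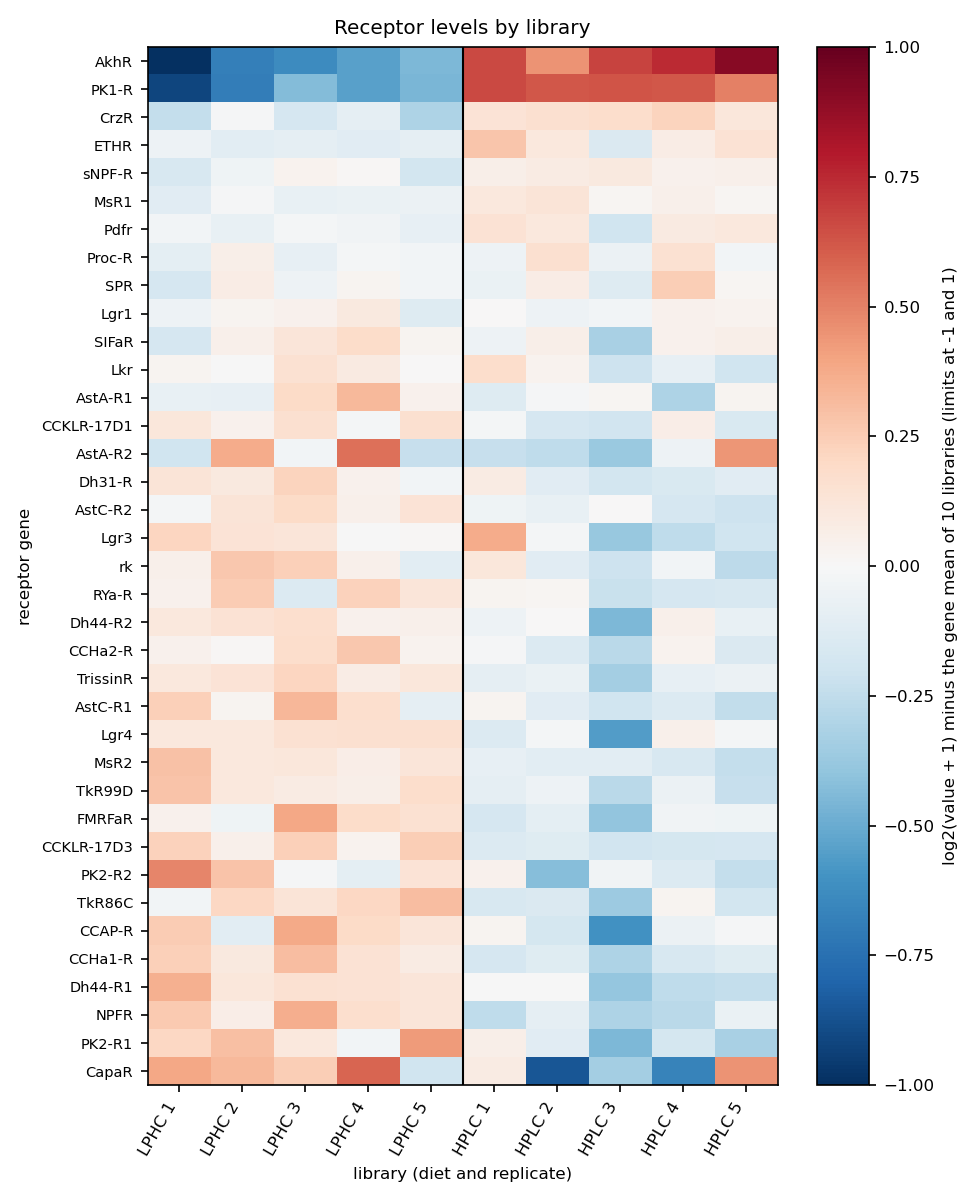
Level of each receptor in each of the 10 libraries relative to that receptor's mean over all libraries (colour, log2 of the value plus 1, limits at -1 and 1), with receptors in rows and libraries in columns. AkhR and PK1-R contrast between all libraries of the diets, and HPLC replicate 3 is the lowest library of its diet in 24 rows.

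**Figure D2:**
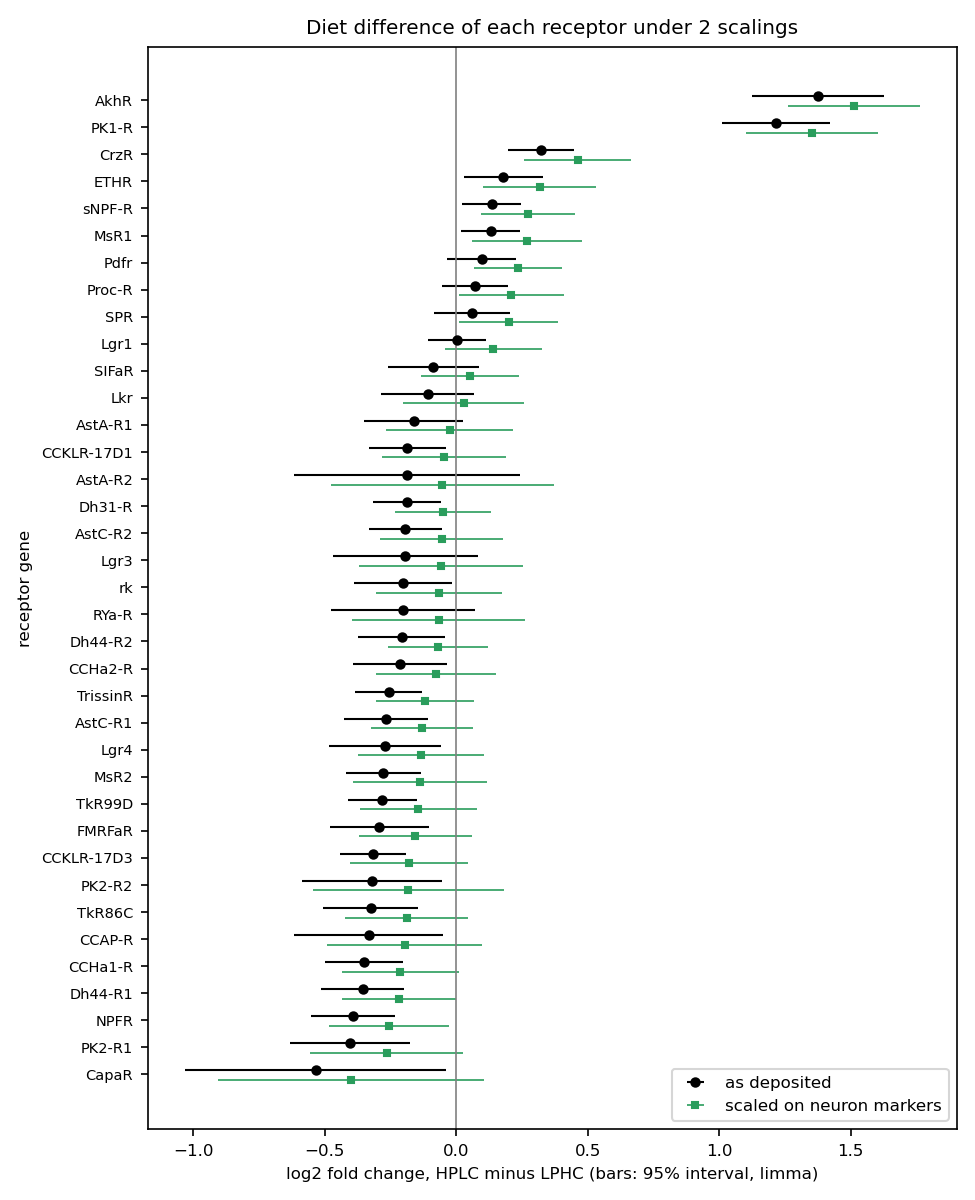
Log2 fold change of each of the 37 receptors, HPLC minus LPHC, as deposited (black circles) and scaled to the neuron markers (green squares), with 95% intervals from limma before adjustment over genes. As deposited, the 3 receptors called higher lie from 0.32 to 1.38 and the 16 called lower from -0.40 to -0.19, and neuron scaling shifts every receptor to higher values.

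The groups of receptors by role are small, and the background for each was the 22.1% of all tested genes called higher and the 18.9% called lower. Among receptors of energy store hormones, both members rose. AkhR is the receptor of adipokinetic hormone, which makes the fat body release stored lipid and sugar. Its normalised counts in LPHC replicates 1 to 5 were 364, 502, 522, 553 and 591, and in HPLC replicates 1 to 5 they were 1276, 1103, 1285, 1351 and 1516. The diets did not overlap, and the lowest HPLC library stood well above the highest LPHC library. The mean went from 507 ± 86.2 to 1306 ± 149 (SD, n = 5 each), 2.58-fold, with a log2 fold change of 1.38 ± 0.12 (SE) and an adjusted p of 2.36e-07 (limma). LPHC replicate 1, the lowest library for AkhR, also had the lowest sum of fat body markers, 32064. That library had the lowest neuron, muscle and haemocyte marker sums of its diet too, 271700, 153690 and 14945. AkhR was highest of LPHC in replicate 5, but the highest LPHC fat body sum, 40925, was in replicate 4. HPLC replicates 2 and 5, the lowest and highest of their diet for AkhR, had its lowest and highest fat body sums, 167470 and 213660. The fat body sum rose more than AkhR did, 5.16-fold, so AkhR made up 1.14% to 1.53% of that sum on LPHC and 0.645% to 0.732% on HPLC. Whether this accounts for the rise of AkhR was not tested. apolpp, the precursor of the main lipid carrier made by the fat body, went from 14098.5 ± 2039 to 68600.5 ± 6574 (SD, n = 5 each), 4.87-fold. Lsp2, another fat body gene, was near the floor on LPHC, at 3.25 ± 2.68, and reached 9177 ± 1018 on HPLC. Fat body genes therefore did not rise by 1 common factor, and their sum is not an even measure of that tissue.

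CrzR is the receptor of corazonin, a neurohormone tied to stress and metabolism, and is related in sequence to AkhR. It had 830, 973, 872, 922 and 789 in the LPHC libraries and 1079, 1092, 1105, 1143 and 1060 in the HPLC libraries. Again no library of one diet reached into the range of the other, but the gap was small. The mean went from 877 ± 72.8 to 1096 ± 30.9 (SD, n = 5 each), with a log2 fold change of 0.32 ± 0.06 and an adjusted p of 3.30e-04 (limma).

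The pyrokinin and capa receptors split. PK1-R is the receptor of the pyrokinin encoded by Capa. Its LPHC libraries held 107, 126, 151, 139 and 148, and its HPLC libraries 323, 313, 316, 314 and 290. The diets did not overlap, and the HPLC libraries were close to each other. The mean rose 2.32-fold, from 134 ± 18.1 to 311 ± 12.6 (SD, n = 5 each), with a log2 fold change of 1.22 ± 0.10 and an adjusted p of 1.77e-08 (limma). PK1-R and the sum of fat body markers were both higher in every HPLC library than in any LPHC library. LPHC replicate 1 was the lowest for both, and HPLC replicate 5 had the lowest PK1-R value of its diet and the highest fat body sum. The part of the fat body in the rise of PK1-R was not tested.

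PK2-R1 and PK2-R2 are receptors of the hugin pyrokinin, a peptide of neurons that join taste input to feeding. PK2-R1 had 245, 261, 229, 208 and 286 on LPHC and 221, 197, 155, 188 and 170 on HPLC, with HPLC replicate 1 inside the LPHC range. It fell, with a log2 fold change of -0.40 ± 0.11 and an adjusted p of 0.00693 (limma). PK2-R2 went from 147 ± 24.5 to 117 ± 14.6 and did not pass (-0.32 ± 0.13, adjusted p = 0.0524, limma). It passed without LPHC replicate 3 or 4 or HPLC replicate 1 or 3, with adjusted p-values of 0.0291 to 0.0463 (limma). CapaR, the receptor of the capa peptides best known in the renal tubules, had the widest scatter of the 4: 44.7 to 56.8 in 4 LPHC libraries and 32.7 in the fifth, against 20.3 to 51.6 on HPLC. Its diets overlapped and it did not pass (-0.54 ± 0.24, adjusted p = 0.0801, limma). Leaving out LPHC replicate 5 or HPLC replicate 5 brought CapaR past the threshold, with adjusted p-values of 0.0480 and 0.0197 (limma).

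**Figure D3:**
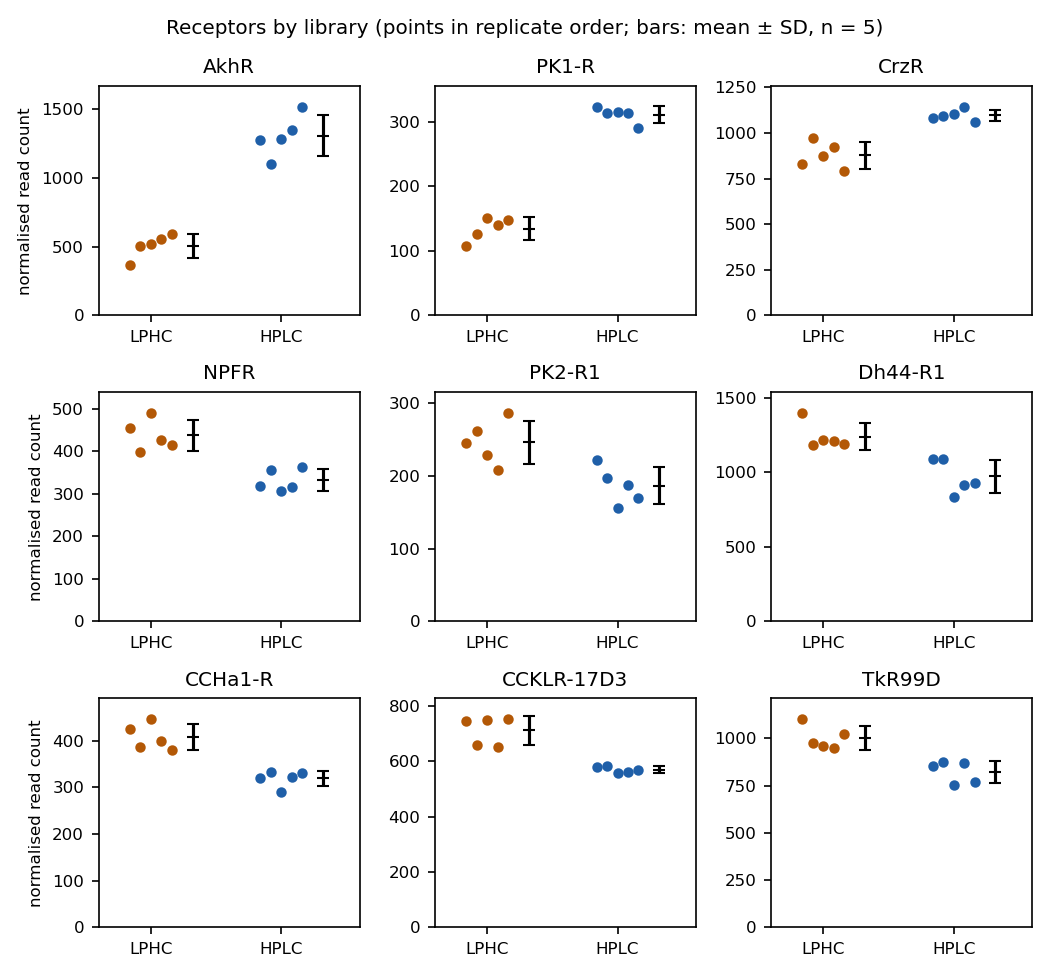
Normalised counts of 9 receptors in each library of LPHC and HPLC, with 1 point a library in replicate order and bars for the mean ± SD of each diet (vertical axes start at 0). AkhR and PK1-R show wide gaps between diets, and the receptors that fell show small ones.

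Among the 10 receptors that act on feeding and satiety, 4 fell and none rose, beside 18.9% and 22.1% of all tested genes. NPFR, the receptor of neuropeptide F, acts in food seeking and reward. It had 455, 399, 490, 427 and 413 on LPHC and 319, 356, 307, 315 and 363 on HPLC. Every HPLC library was below every LPHC library. Its mean on HPLC was 76.0% of that on LPHC, with a log2 fold change of -0.39 ± 0.08 and an adjusted p of 5.25e-04 (limma). sNPF-R, the receptor of short neuropeptide F, which promotes feeding, had 1359 to 1580 on LPHC and 1590 to 1652 on HPLC. It did not overlap either but lay in the opposite direction and did not pass as deposited (0.14 ± 0.05, adjusted p = 0.0533, limma). Without LPHC replicate 3 or 4 it was called higher, with adjusted p-values of 0.0342 and 0.0434 (limma).

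CCHa1-R, the receptor of the gut and brain peptide CCHamide-1, had 426, 386, 447, 399 and 381 on LPHC and 321, 332, 291, 322 and 331 on HPLC. The diets were apart, and HPLC replicate 3 was the lowest. The log2 fold change was -0.35 ± 0.07 with an adjusted p of 6.74e-04 (limma). CCHa2-R, through which CCHamide-2 from fat body and gut reaches the insulin-producing cells, went from 253 ± 20.2 to 218 ± 18.03 and did not pass (-0.21 ± 0.08, adjusted p = 0.0532, limma). Leaving out HPLC replicate 1 or 4 brought it past, with adjusted p-values of 0.0472 and 0.0400 (limma).

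CCKLR-17D1 and CCKLR-17D3 are receptors of drosulfakinin, the fly's relative of the satiety peptide cholecystokinin, and both fell. CCKLR-17D3 had 745, 660, 750, 651 and 753 on LPHC and 579, 584, 556, 562 and 567 on HPLC, with no overlap. Its log2 fold change was -0.32 ± 0.06 with an adjusted p of 3.82e-04 (limma). CCKLR-17D1 went from 432 ± 23.4 to 380 ± 29.7 with overlap, and its adjusted p was 0.0427 (-0.19 ± 0.07, limma). Leaving out LPHC replicate 1, 3 or 5 or HPLC replicate 2, 3 or 5 ended the call, with adjusted p-values of 0.0705 to 0.0973 (limma). The other feeding receptors did not pass. The allatostatin A receptors AstA-R1, with -0.16 ± 0.09, and AstA-R2, with -0.19 ± 0.20, are relatives of galanin receptors. SIFaR, the receptor of SIFamide, which acts on appetite, sleep and courtship, had -0.09 ± 0.08, and that value turned to 0.05 under neuron scaling. RYa-R, the receptor of RYamides, had -0.20 ± 0.13.

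Both receptors of allatostatin C, which inhibit the cells that carry them and are related to somatostatin receptors, fell. AstC-R1, the receptor with the highest counts, had 2715, 2347, 2898, 2593 and 2163 on LPHC and 2350, 2133, 2010, 2092 and 1942 on HPLC. HPLC replicate 1 lay within the LPHC range. The log2 fold change was -0.27 ± 0.08 with an adjusted p of 0.00985 (limma). AstC-R2 went from 459 ± 25.4 to 401 ± 23.9 (-0.19 ± 0.07, adjusted p = 0.0267, limma) and lost its call without LPHC replicate 2, 3 or 5 or HPLC replicate 4 or 5, with adjusted p-values of 0.0522 to 0.0750.

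Of 8 receptors of tachykinins, RFamides and related peptides, 5 fell (18.9% of all tested genes). TkR99D, a tachykinin receptor, had 1102, 973, 959, 946 and 1023 on LPHC and 851, 872, 751, 871 and 771 on HPLC. Its diets did not overlap, and the log2 fold change was -0.28 ± 0.06 with an adjusted p of 0.00165 (limma). TkR86C, the other receptor of that family, went from 318 ± 26.7 to 254 ± 24.7 (-0.33 ± 0.09, adjusted p = 0.00611, limma). FMRFaR, the FMRFamide receptor, went from 427 ± 48.9 to 348 ± 34.3 (-0.29 ± 0.09, adjusted p = 0.0146, limma).

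TrissinR, the receptor of the cysteine-rich peptide trissin, had 939, 957, 1009, 918 and 940 on LPHC and 817, 831, 690, 821 and 836 on HPLC. The diets were apart, with HPLC replicate 3 well below the rest of its diet. The log2 fold change was -0.26 ± 0.06 with an adjusted p of 0.00277 (limma). The receptors of myosuppressin, a peptide that slows muscle, differed in direction. MsR2 had 426, 373, 375, 364 and 379 on LPHC and 328, 323, 322, 311 and 295 on HPLC, and fell (-0.28 ± 0.07, adjusted p = 0.00350, limma). MsR1 had 544, 586, 561, 563 and 565 on LPHC and 636, 646, 598, 613 and 597 on HPLC, also without overlap but in the opposite direction, and did not pass (0.13 ± 0.05, adjusted p = 0.0585, limma). Without HPLC replicate 3 its adjusted p was 0.0483 (limma). Proc-R, the proctolin receptor, had 0.07 ± 0.06, and SPR, the receptor of sex peptide and of myoinhibitory peptides, had 0.06 ± 0.07. Neither passed, and both turned negative under upper-quartile and quantile scaling.

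Of 5 receptors of water balance hormones and the related clock receptor, 3 fell (18.9% of all tested genes). Dh44-R1 and Dh44-R2 bind diuretic hormone 44, a relative of corticotropin-releasing factor that is also made by brain neurons that sense nutritive sugar and amino acids. Dh44-R1 had 1398, 1185, 1217, 1208 and 1189 on LPHC and 1087, 1090, 835, 915 and 929 on HPLC. LPHC replicate 1 stood above the rest of its diet, and the diets did not overlap. The log2 fold change was -0.36 ± 0.08 with an adjusted p of 0.00121 (limma), and no leave-one-out fit lost the call. Dh44-R2 had 1213 to 1322 on LPHC and 861 to 1217 on HPLC, with HPLC replicate 3 at 861. Its adjusted p was 0.0430 (-0.21 ± 0.08, limma), and 0.0655 without that library. Leaving out any LPHC library, or HPLC replicate 3 or 5, ended its call, with adjusted p-values of 0.0538 to 0.0951 (limma).

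Dh31-R, the receptor of the calcitonin-like diuretic hormone 31, went from 2108 ± 136 to 1851 ± 137 (-0.19 ± 0.06, adjusted p = 0.0217, limma) with overlap. Leaving out LPHC replicate 3 gave an adjusted p of 0.0662 and leaving out HPLC replicate 4 gave 0.0548. Pdfr, which receives the clock peptide PDF, had 1871 to 1954 on LPHC. On HPLC it had 2102 to 2186 in 4 libraries and 1720 in replicate 3. It did not pass (0.10 ± 0.06, adjusted p = 0.233, limma), but without HPLC replicate 3 it was called higher (0.16, adjusted p = 0.00889, limma), and under quantile normalisation it was -0.01. Lkr, the leucokinin receptor, went from 297 ± 13.7 to 276 ± 32.2 and did not pass (-0.11 ± 0.08), with 0.03 under neuron scaling.

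Among the leucine-rich repeat receptors, a family with large hormone-binding ends, 1 of 4 fell, a share near the 18.9% of all tested genes. Lgr4, a relative of relaxin receptors, had 287, 287, 297, 299 and 299 on LPHC and 244, 264, 181, 277 and 264 on HPLC. The diets were apart, but HPLC replicate 3 was far lower than its diet, and the adjusted p of 0.0405 (-0.27 ± 0.10, limma) became 0.0761 without it, with a log2 fold change of -0.17. Leaving out any LPHC library or HPLC replicate 1 ended the call too, with adjusted p-values of 0.0545 to 0.0752 (limma). Lgr3, the receptor of Ilp8, went from 121 ± 7.58 to 107 ± 23.4 (-0.19 ± 0.13), and rk, the bursicon receptor, from 383 ± 40.8 to 333 ± 35.1 (-0.20 ± 0.09). Neither passed over all libraries. Lgr3 was called lower without HPLC replicate 1 (-0.31, adjusted p = 0.0373, limma). For rk this happened without LPHC replicate 5 or HPLC replicate 1, with adjusted p-values of 0.0373 and 0.0296 (limma). Lgr1, the receptor of the glycoprotein hormone Gpa2/Gpb5, had almost equal means of 1227 ± 73.5 and 1228 ± 34.2, with a 95% interval for the log2 fold change of -0.11 to 0.11.

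Neither receptor of the moulting peptides passed. ETHR, the ecdysis-triggering hormone receptor, had 455 to 474 on LPHC and 444 to 594 on HPLC (0.18 ± 0.07, adjusted p = 0.0524, limma). HPLC replicate 3 was its lowest library, and without it ETHR was called higher (0.24, adjusted p = 0.00456, limma). CCAP-R, the receptor of crustacean cardioactive peptide, went from 121 ± 14.8 to 96.5 ± 15.8 (-0.33 ± 0.13, adjusted p = 0.0572, limma). It was called lower without LPHC replicate 2 or HPLC replicate 1, with adjusted p-values of 0.0301 and 0.0420 (limma).

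Some receptors share exonic bases with a gene on the opposite strand in the Ensembl release 115 annotation, and the strand setting of the counting is not given in the sources used here. This holds for 34.5% of the exonic bases of Lgr3, 33.2% of Dh44-R2, 29.2% of Lgr4, 26.8% of SPR, 9.8% of rk and 1.2% of RYa-R. For these 6 receptors the reads may include those of the overlapping gene, and their values are uncertain to that extent. The other 31 receptors shared no exonic bases with another gene in that annotation.

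Levels were compared between receptors per kilobase of merged exon. On LPHC the order began with AstC-R1 at 873 ± 100 normalised counts per kilobase, Dh31-R at 642 ± 41.5 and Dh44-R1 at 501 ± 36.2 (SD, n = 5 each), and it ended with AstA-R2 at 17.9 ± 4.58. The highest 4, with Pdfr at 410 ± 8.08, were apart by more than the SD of either neighbour. Among the others many neighbours were not: Dh44-R2 at 385 ± 14.95, Lgr1 at 381 ± 22.8 and SPR at 380 ± 23.9 lay within the spread, as did AkhR at 159 ± 27.1 and MsR1 at 159 ± 4.15. On HPLC AkhR reached 411 ± 46.9 per kilobase and moved from rank 14 to rank 4, next to Pdfr at 440 ± 40.4 and SPR at 397 ± 40.7, from which it did not differ beyond the spread. PK1-R moved from rank 31 with 53.4 ± 7.20 to rank 17 with 124 ± 5.03. Dh44-R1 went from rank 3 to rank 6, and AstC-R1 and Dh31-R stayed the highest receptors on both diets.

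Receptors of the same or closely related ligands were compared within each library by their log2 ratio, on which the scaling of libraries has almost no effect. An exact permutation test over all assignments of the libraries to diets, two-sided and adjusted over the 10 pairs tested, was used. Its smallest possible p is 0.00794. MsR1 to MsR2 had a log2 ratio of 0.56 ± 0.12 on LPHC, and on HPLC it was 0.97 ± 0.05 (SD over 5 libraries). The libraries of the diets did not overlap, with 0.35 to 0.65 against 0.89 to 1.02. The difference was 0.41 with a 95% interval of 0.30 to 0.54. It had the smallest possible p, 0.00794, which was 0.0794 after adjustment (exact permutation). No pair passed the threshold over the 10. A pair that alone had the smallest possible p could not pass it, so this outcome does not speak against a difference for MsR1 to MsR2. CCKLR-17D1 to CCKLR-17D3 differed by 0.13 (0.02 to 0.27, exact permutation p = 0.0159, adjusted 0.0794) and Lgr1 to rk by 0.21 (0.01 to 0.41, exact permutation p = 0.0476, adjusted 0.159).

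The other 7 pairs had intervals that included 0. Dh44-R1 to Dh44-R2 differed by -0.15 (-0.38 to 0.05), CCHa1-R to CCHa2-R by -0.14 (-0.30 to 0.03), PK2-R1 to PK2-R2 by -0.08 (-0.43 to 0.27) and AstC-R1 to AstC-R2 by -0.07 (-0.31 to 0.18). TkR86C to TkR99D differed by -0.04 (-0.22 to 0.20), AstA-R1 to AstA-R2 by 0.02 (-0.52 to 0.55) and Lgr3 to Lgr4 by 0.08 (-0.27 to 0.44). In the gene models, PK2-R1 and PK2-R2 lie next to each other with 0 genes starting between them, AstC-R1 and AstC-R2 have 1 gene between them, MsR1 and MsR2 have 2 and the CCKLR genes have 6.

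**Figure D4:**
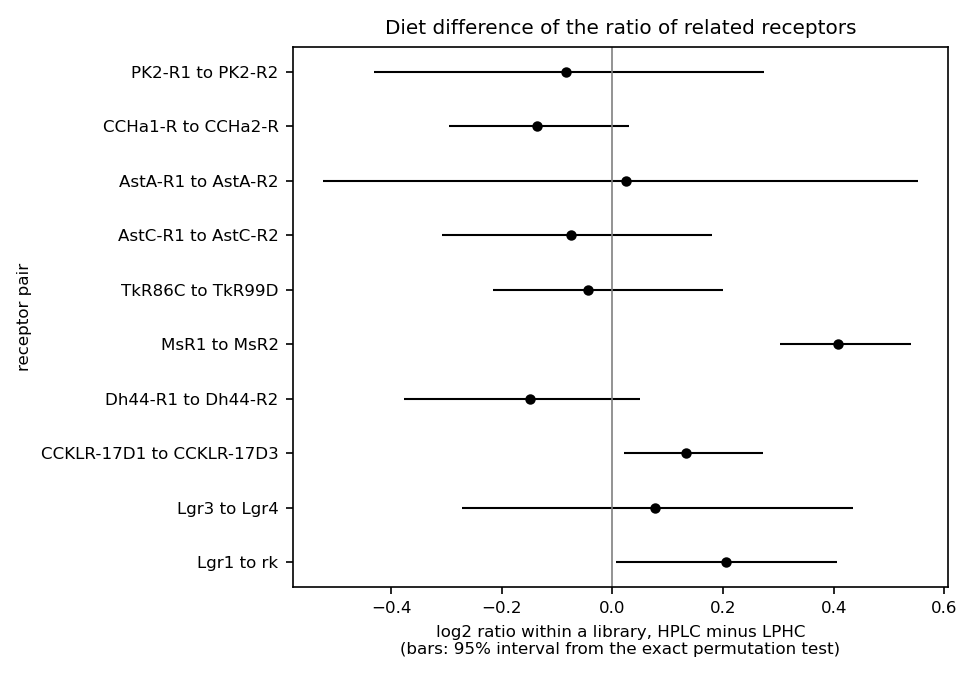
Difference between diets of the log2 ratio of 10 receptor pairs within a library, HPLC minus LPHC (points), with 95% intervals from the exact permutation test (bars). MsR1 to MsR2 is the farthest from 0 at 0.41, and 7 intervals include 0.

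The ligands were compared with their receptors. Of 32 ligand genes 26 were listed and 23 had a mean of at least 10. Of these, 2 rose, 10 fell and 11 did not pass, with a median log2 fold change of -0.21. The shares were 8.7% higher and 43.5% lower, against 22.1% and 18.9% of all tested genes, whose median was -0.03. CCHa2, the peptide that nutrition is known to induce in fat body and gut, had 579, 408, 624, 500 and 518 on LPHC and 3742, 2494, 3381, 2897 and 3293 on HPLC. The diets were far apart, with a 6.01-fold rise and a log2 fold change of 2.59 ± 0.12 (adjusted p = 5.76e-10, limma). Its receptor CCHa2-R did not pass. The summed fat body markers rose 5.16-fold and apolpp 4.87-fold between the same diets. The part of the fat body in the rise of CCHa2 was not tested. Dh44 rose from 5280 ± 272 to 6638 ± 468 (0.33 ± 0.06, adjusted p = 4.35e-04, limma), while both its receptors fell. Capa (-0.24 ± 0.08) and Crz (-0.28 ± 0.07) fell, while PK1-R and CrzR rose. Capa lost its call without LPHC replicate 1 or 3 or HPLC replicate 4 or 5, with adjusted p-values of 0.0558 to 0.0688 (limma).

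Hug, the hugin precursor, had the lowest log2 fold change of the called ligands, -0.54 ± 0.08 (adjusted p = 3.68e-05, limma), and its receptor PK2-R1 fell as well. Proc, the proctolin precursor, had -0.47 ± 0.07 (adjusted p = 7.64e-05, limma), while Proc-R did not pass. Hug and Proc were the ligands still called lower under neuron scaling. Dh31, Dsk and AstC fell, as did at least 1 receptor of each. AstC (adjusted p = 0.0451, limma) lost its call without any 1 library except LPHC replicate 2 and HPLC replicate 1, with adjusted p-values of 0.0563 to 0.124. Gpb5, Mip and sNPF fell while Lgr1, SPR and sNPF-R did not pass. Akh, the ligand of AkhR, is made in the corpora cardiaca, outside the brain. Its mean was under the minimum of 10, at 8.28 ± 2.99 and 4.23 ± 2.92 (LPHC and HPLC, SD over 5 libraries), and it was not tested, nor were Ilp8 and RYa.

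**Figure D5:**
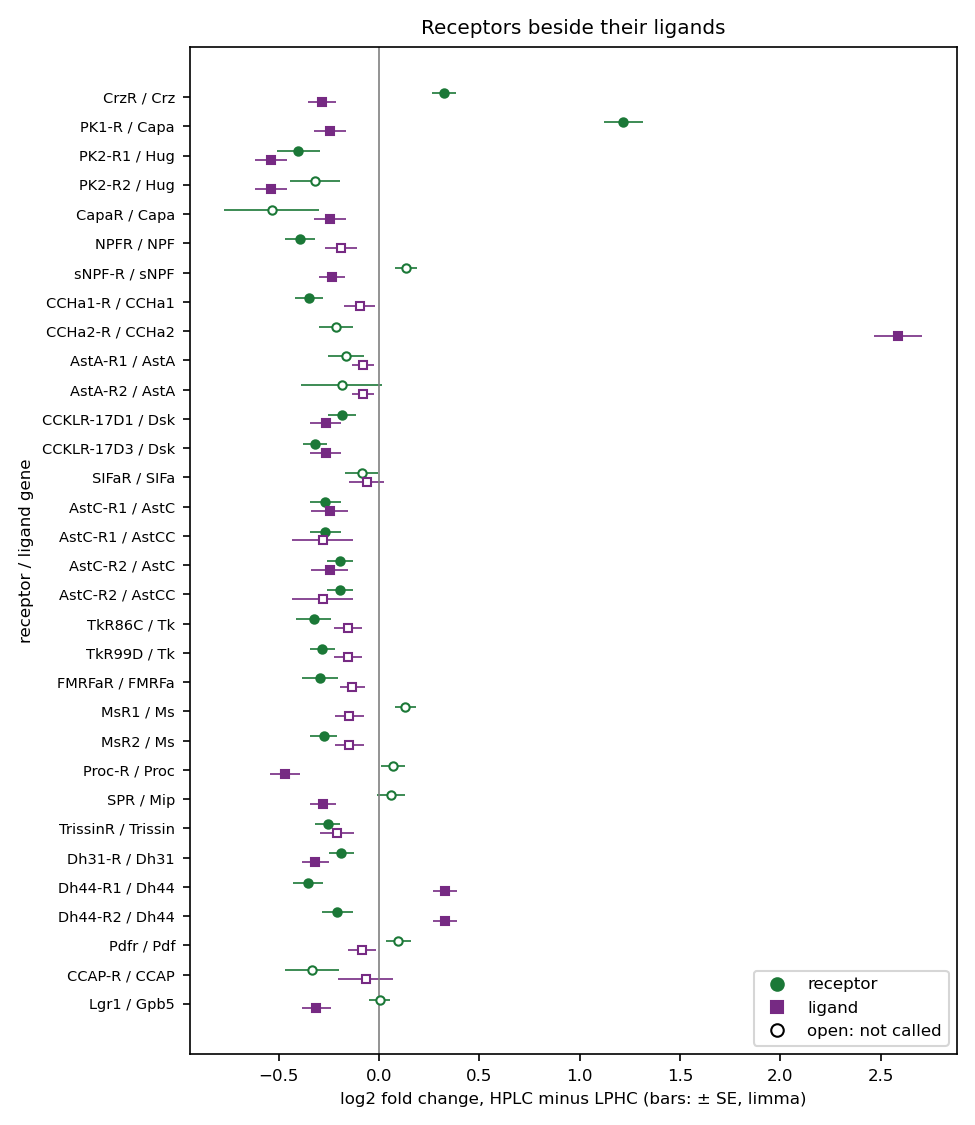
Log2 fold change (HPLC minus LPHC, horizontal axis, bars ± SE) of each receptor and of its ligand in the same row, for ligands that were tested. Filled symbols passed the adjusted threshold. Where receptor and ligand both passed, CrzR, PK1-R and the Dh44 receptors lie on the opposite side of 0 from their ligands. CCHa2-R, sNPF-R, MsR1, Proc-R, SPR, Pdfr and Lgr1 also differ in sign from theirs, but these receptors did not pass. CCHa2 stands apart at 2.59.

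All 34 genes listed for G-protein signalling were tested, and 2 rose and 9 fell (5.88% and 26.5%, against 22.1% and 18.9% of all tested genes). The median log2 fold change of the 34 was -0.07, beside -0.03 over all tested genes. The list covers G-protein signalling in general, and whether its genes act with the peptide receptors was not tested. Of 14 photoreceptor markers 4 were called lower too, and the part of photoreceptors in the 9 falls was not tested. Pka-C3, a catalytic subunit of the cyclic AMP-dependent kinase, had -0.30 ± 0.07 (adjusted p = 0.00131, limma) and Pkc53E, a protein kinase C, had -0.26 ± 0.06 (adjusted p = 0.00194, limma). loco, a regulator that speeds the shut-off of G proteins, rose by 0.24 ± 0.06 (adjusted p = 0.00252, limma). Ggamma1, a G-protein gamma subunit, had -0.20 ± 0.06. Under neuron scaling 6 of the 34 were called higher and none lower (17.6% higher, against 24.7% of all tested genes).

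Of 18 tested genes for making, releasing or breaking down peptides, 2 rose and 5 fell (11.1% and 27.8%, against 22.1% and 18.9% of all tested genes), with a median log2 fold change of -0.03, the same as over all tested genes. Nep1, a neprilysin-type peptidase, fell (-0.21 ± 0.05, adjusted p = 0.00168, limma), and 7B2, a helper of the peptide-cutting convertase, had -0.21 ± 0.06 (adjusted p = 0.0151, limma). The peptidases Ance (0.39 ± 0.10, adjusted p = 0.00410, limma) and Nep5 (0.62 ± 0.18, adjusted p = 0.0111, limma) rose. Nep5 overlaps exonic bases of RYa-R on the opposite strand.

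Marker lists of cell types other than the neuron list also moved with the diets beside all these results. The summed level of 11 haemocyte markers was 14945 to 30193 on LPHC and 39191 to 45313 on HPLC, with 7 called higher. Of 4 tested markers of the corpora cardiaca and corpora allata 3 were called higher, and the summed level of the 5 listed rose from between 2574 and 2678 to between 4347 and 5170. These glands were pooled in the list. Akh, made in the corpora cardiaca, was not tested and had a lower mean on HPLC, 4.23, than on LPHC, 8.28, with overlap. Of 6 tested renal and gut markers, 4 were called higher and 1 lower (summed level 4148 to 4897 and 7301 to 8016). Of 12 glial markers, 5 were called higher (63745 to 70125 and 70344 to 83263). Of 14 photoreceptor markers 4 were called lower and none higher (summed level 3131500 to 3471300 and 2417100 to 3028800), and of 13 tested muscle markers 8 were called lower and none higher (153690 to 183920 and 145210 to 156810). Every gene of the deposited table had reads in at least 6 libraries, so a listed marker could not be at 0 throughout. Of 11 renal and gut markers named, 7 were listed, and Uro, Vha16-2, betaTry and kappaTry were absent. Of 15 photoreceptor markers named, 14 were listed, and ninaA was absent. The part of these cell types in the receptor results was not tested.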

How the data were processed

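RNA from dissected brains of male W1118 flies was sequenced, 5 libraries a diet, grouped by the diet in their titles. The authors deposited 1 table of normalised counts, a signal that is never negative. Reads were aligned with HISAT2, per the submitters' processing notes. For the counting tool, its strand setting and the genome build the record is: not given in the sources used here. Coordinates are therefore left out. In each library the deposited values were whole multiples of 1 constant (100% whole within 1e-06), the reciprocal of the library's median-of-ratios size factor. Library totals ran from 19834344 to 38402635 reads, and 3 reads correspond to 2.09 to 4.19 normalised counts. Intervals of log2 fold changes came from limma, and those of pair ratios from the exact permutation test. Both reflect how the libraries of a diet scatter, not counting error alone.

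limma 3.58.1 (R 4.3.3, trend, robust) was fitted to log2(value + 1) of 9896 genes with a mean of at least 10, which understates changes of low genes. Alternative settings were pseudocounts of 0.5 and 5, a minimum mean of 50 or none, scaling by TMM, upper quartile, quantiles or neuron markers, a replicate block, plain empirical Bayes, edgeR 4.0.16, DESeq2 1.42.0 and leaving out each library. The fits were also run on simulated data with as many genes raised as lowered. Such data cannot show how far the calls depend on the scaling. Exon lengths and neighbours came from the Ensembl release 115 annotation. The members, ligands, pairs and marker lists were chosen with earlier results of these data known. Every member is named, with its ligand where one was matched, and up to 4 called genes each of the signalling and processing lists by smallest adjusted p.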

Additional observations from a re-analysis of the deposited data

Results flagged for a closer look

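In 74 groups of 5 libraries (37 receptors in each diet), the highest or lowest library was set against the rest by Dixon's criterion, and 7 stood apart. Chance gives about 1 in 20 groups if the groups are independent. These were not, since all 37 receptors of a diet were read in the same 5 libraries, so the count cannot be set against that rate. HPLC replicate 3 was the low library in 4 of the 7: CCHa1-R at 290.67 against 321.02 in the nearest library, Pdfr at 1720 against 2102, Dh44-R2 at 861.07 against 1118.4 and TrissinR at 689.51 against 817.33. LPHC replicate 1 was the high library for MsR2, at 425.59 against 378.77, and for Dh44-R1, at 1397.8 against 1217.1. HPLC replicate 1 was the high library for Dh31-R, at 2087.1 against 1826.6. HPLC replicate 3 had the lowest mean log2 level of the neuron markers, 13.6; its part in these values was not tested.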

How the results depend on the processing

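The 37 receptors gave 3 called higher and 16 called lower, against 22.1% and 18.9% of all tested genes. With neuron-marker scaling 6 were higher and 0 lower, against 24.7% and 2.21% of all tested genes. DESeq2 called 5 higher (22.4% of all tested genes), and quantile normalisation called 25 lower (39.4%). Leaving out each library in turn gave 3 to 6 higher and 12 to 20 lower. In those fits 19.9% to 22.5% of all tested genes were called higher and 14.9% to 19.4% lower. Of the 19 calls, 14 held in every such fit. Ligands called lower went from 10 to 16 with upper-quartile, 18 with quantile and 2 with neuron scaling. The share of all tested genes called lower went from 18.9% to 33.1%, 39.4% and 2.21% under those scalings. G-protein genes called higher went from 2 to 1, 0 and 6 there, and called lower from 9 to 18, 18 and 0. The share of all tested genes called higher went from 22.1% to 17.8%, 17% and 24.7%. Leaving out libraries gave 1 to 4 G-protein genes higher and 5 to 11 lower. Processing genes went from 2 higher and 5 lower to 5 and 0 with neuron scaling, and leaving out libraries gave 2 to 4 higher and 2 to 5 lower. The cause was not tested.

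Values that changed sign were Lkr (0.0289) and SIFaR (0.0516) with neuron scaling. With upper-quartile scaling they were Lgr1 (-0.0811), Proc-R (-0.0126) and SPR (-0.0232). With quantile normalisation they were Lgr1 (-0.1263), Pdfr (-0.0135), Proc-R (-0.055) and SPR (-0.0653). Lgr1 was -0.0005 with edgeR and ran from -0.0285 to 0.0276 when libraries were left out in turn. With each library left out in turn, pair ratios ranged from -0.085 to 0.1323 for the AstA receptors, -0.0383 to 0.1624 for Lgr3 to Lgr4, -0.1729 to 0.0106 for the PK2 receptors, 0.3571 to 0.4307 for the Ms receptors and 0.0879 to 0.1607 for the CCKLR receptors.

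The replicate numbers did not pair the libraries: correlations of same-numbered libraries were -0.0247 to 0.00501. With a replicate block, 3 receptors were called higher and 14 lower, against 21.7% and 17.2% of all tested genes. In that fit 3 processing genes were called lower. Dh44-R2 (adjusted p = 0.0590, limma) and CCKLR-17D1 (adjusted p = 0.0753, limma) lost their calls.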

Other observations

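Other receptors of peptide signals, kept apart from the 37, were listed too. Of 14 tested, 1 rose and 7 fell, against 22.1% and 18.9% of all tested genes, with a median log2 fold change of -0.17 (limma). The genes named here were chosen after their values were seen. InR, the insulin receptor, went from 2945 ± 377 on LPHC to 1855 ± 221 on HPLC (SD, n = 5 each), with a log2 fold change of -0.67 ± 0.10 and an adjusted p of 5.15e-05 (limma), and it was the 1 gene of this list still called lower when the libraries were scaled to the neuron markers. CNMaR, the receptor of CNMamide, went from 892 ± 43.2 to 749 ± 38.1 (-0.25 ± 0.06, adjusted p = 0.00166, limma). mth, a receptor known for its effect on lifespan, was the 1 that rose, from 351 ± 25.6 to 462 ± 27.5 (0.40 ± 0.07, adjusted p = 1.97e-04, limma).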
